A study of Saccharomyces cerevisiae with 16 samples.

Results

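The 34 nuclear genes described here encode the yeast NADH dehydrogenases NDI1 and NDE1 (2 genes), complex III (9), cytochrome c (2), complex IV (9) and the ATP synthase (12). They were taken by name, with earlier results of these data known, as genes of oxidative phosphorylation other than those of complex II, from the 6648 named genes of the table. Their RNA was followed in Saccharomyces cerevisiae cells of a BY4741 background, all labelled as carrying a deletion, Δphm4, and a YFP reporter under the PHO84 promoter; the RNA of the deleted gene, given below, goes against that label. Cells grown with ample phosphate gave the 0 min library, and cells washed and put into medium with no phosphate gave 15 more at steps of 15 min, the last at 225 min. Each time point had 1 library and no replicate. No library labelled as having intact PHM4 was analysed here, so that no value below measures what a deletion does. The labels give no carbon source and no clone number.

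Baker's yeast has no proton-pumping complex I. Single-protein NADH dehydrogenases, of which Ndi1 faces the matrix and Nde1 the intermembrane space, pass electrons to ubiquinone, and complex III hands them through cytochrome c to complex IV, which reduces oxygen. The proton gradient so built drives the ATP synthase, which joins ADP and phosphate. Most of these genes are known to be repressed by glucose, and many are targets of the CCAAT-binding Hap2/3/4/5 complex.

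The values are log2 reads per 1000000 (CPM), that is, shares of a library, so fewer transcripts of other genes and more of a named gene cannot be told apart. Taking the lowest listed value of a library as 10 reads, the 14 deeper libraries held 603426 to 3437873 reads. The libraries labelled 195 and 210 min held 40984 and 45009 reads, listed values only above 244 and 222.2 CPM, and held 13 and 17 of the 34 genes. VTC1, another name of PHM4, was listed in all 16 libraries, which goes against the label Δphm4. In the deeper ones it lay at 101.5 to 182.6 CPM, in each above the median gene, and at 1781 and 1911 CPM in those labelled 195 and 210 min. Which stretch of the gene these reads cover is not shown by the table, and whether the cells carry the deletion was not tested. The 2 shallow libraries were left out of the main fits, and results with them are given where they change a count or a call. Of BY4741's missing markers, LEU2 and MET17 were listed nowhere, HIS3 in 1 library and URA3 in 3. The mating type a genes MFA1 and MFA2 lay at 573 CPM or above in all 16, and the alpha genes MF(ALPHA)1, STE3 and SAG1 at 49.85 CPM or below. Of the 34 genes, 31 had a value in all 14 deeper libraries and 12 in all 16. NDI1, listed in 6 libraries, had too few values for the main fits, which leaves 33.

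The genes took up a larger share of the RNA in starvation than before it. Their summed CPM made up 0.404% of the reads at 0 min, 0.793% at 60 min, 0.613% at 105 min and 1.136% at 165 min, and stood at 1.125% at 180 min and 1.074% at 225 min. The share thus stood higher at 60 min than at 105 min, and higher again from 150 min. The median log2 ratio to 0 min of the 31 complete genes was 0.60 at 15 min, 0.95 at 60 min, 0.59 at 105 min, 1.13 at 150 min and 1.39 at 180 min, against 0.24, 0.35, 0.22, 0.28 and 0.42 for the 4495 genes complete in the same libraries. In the libraries labelled 195 and 210 min it was 1.32 over 13 genes and 0.96 over 17, but there the median of all listed genes was also higher, at 0.74 over 1122 genes and 0.68 over 1188, and only genes above the high floors count. Within the deeper libraries, 13 of the 31 genes reached their highest starvation value at 225 min, 8 at 180 min and 8 at 165 min. With the shallow libraries, COX13 and ATP1 were highest at 195 min and QCR8, QCR10 and COX6 at 210 min. The values of QCR10 and COX6 at 210 min lay at the floor of that library, 10 reads each. The exceptions were NDE1, highest at 15 min, and CYC1, highest at 90 min.

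**Figure D1:**
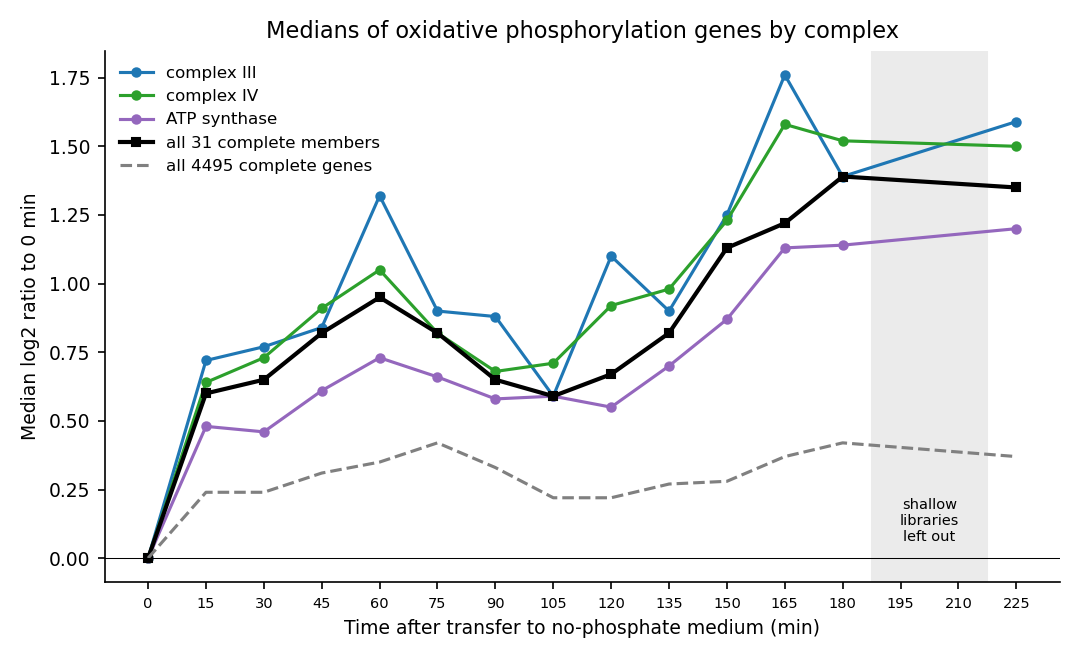
Median log2 ratio to 0 min (y axis) against time after transfer (x axis, min) for complex III, complex IV, the ATP synthase, the 31 complete members and all 4495 complete genes, 1 library per point. The members' median is 0.95 at 60 min, 0.59 at 105 min and 1.39 at 180 min, while that of all genes stays between 0.22 and 0.42.

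Since 0 min is a single library, ratios to it have no test. In the first hour (15 to 60 min) 6 of the 31 genes with all values averaged at least 2-fold above 0 min with the same sign in all 4 libraries, against 16.0% of all genes, a share close to that of the members. They were QCR8, QCR10, CYT1, CYC7, COX5B and COX6, and without the 30 min library there were 10 (17.1% of all genes). In the late hours (150, 165, 180 and 225 min) 23 of 33 did, against 24.9% of all genes, and the median log2 ratio was 1.28 against 0.39 over all genes; with the libraries labelled 195 and 210 min the count was 22 (25.6%). In both periods 0 members were at least 2-fold lower, against 8.49% and 11.6% of all genes. At 0 min the median over genes was 0.32 (log2) lower than its mean in starvation. With every library set to a common median, 3 and 14 members were at least 2-fold higher, against 10.0% and 15.9% of all genes. Late ratios were highest for CYC7, at 31.8-fold (log2 4.99 ± 0.34, SD, n = 4), COX5B at 9.15-fold (3.19 ± 0.16), RIP1 at 5.29-fold (2.40 ± 0.52) and QCR10 at 4.91-fold (2.30 ± 0.31). The lowest was NDE1 at 1.18-fold (0.23 ± 0.25). At 0 min CYC7 had 35 reads and RIP1 14, and the SDs do not cover the error of that single library.

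**Figure D2:**
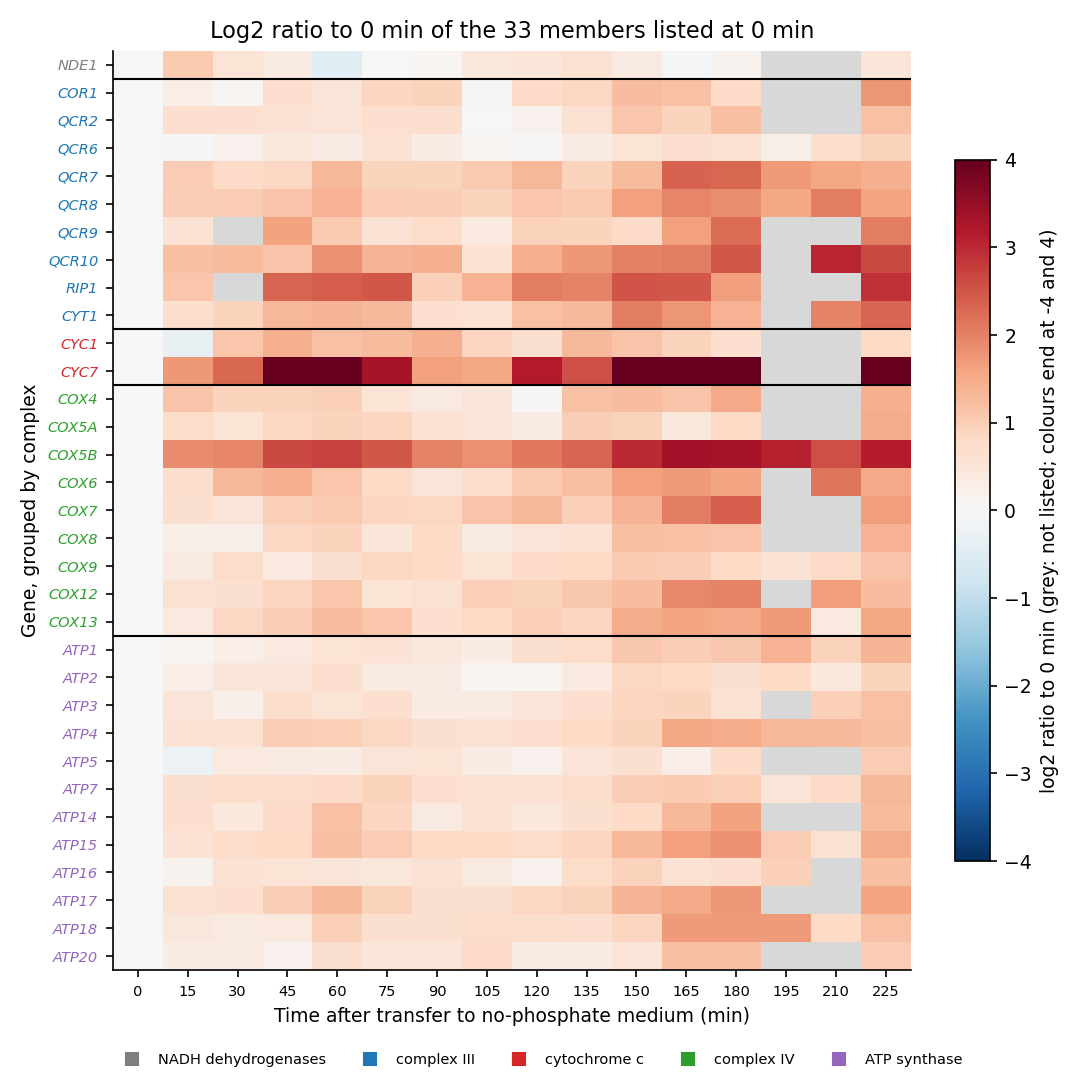
Log2 ratio to 0 min (colour) of each of the 33 genes listed at 0 min (rows, by complex) in each library (columns, min after transfer); grey cells are not listed. CYC7 and COX5B are the darkest rows, and most rows are darker from 150 min on than at 105 min.

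The first test asked whether a gene changed steadily over starvation. A line was fitted to the 13 deeper starvation libraries with limma, and a gene was called where the Benjamini-Hochberg adjusted p over 5282 genes was under 0.05 and the fitted log2 change from 15 to 225 min at least 1. Such p-values measure the scatter of single libraries around a line, of which nothing says that they came from separate cultures. Of the 33 genes, 9 rose, against 3.1% of all genes, and 0 fell, against 3.29%. Those that rose were COR1, QCR10 and CYT1 of complex III, COX5B, COX7 and COX12 of complex IV, and ATP1, ATP15 and ATP18 of the ATP synthase. The median fitted change was 0.85, against 0.09 over all genes, and 32 of 33 fitted changes were positive, against 2964 of 5282 over all genes. At an unadjusted p under 0.05 there were 26 of the 33, against 1249 of 5282. With the libraries labelled 195 and 210 min the count was 5, QCR10, CYT1, COX7, COX12 and ATP1 (1.61% of all genes). COX7 was not listed in these libraries, and QCR10, CYT1 and COX12 only in that labelled 210 min. With the correlation of successive libraries removed the count was 2, COX7 and ATP1 (1.12%). After centring it was 5 (2.22%), after quantile normalization 13 of 31 (3.91%) and with no minimum change 12 (3.62%). Leaving out single libraries gave 1 to 12 calls. There were 2 calls when the 15, 165 or 225 min library was dropped, against 0.573%, 0.952% and 0.67% of all genes, and 1 when that of 30 min was (0.702%). There were 3 when that of 180 min was dropped (0.59%) and 5 when that of 150 min was (2.14%), so calls over all genes fell with them. ATP1 was called in each of these fits.

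Windows of the course were compared next. Successive libraries stand in for replicates here, so p measures scatter within a window only. From the early window (15 to 60 min, 4 libraries) to the middle one (75 to 135 min, 5 libraries) limma called 0 of 33 genes higher and 0 lower, with a median difference of -0.01 (log2) and 1 gene at an unadjusted p under 0.05. Of all 5247 genes, 0.21% were called higher and 0.61% lower. From the middle to the late window (150, 165, 180 and 225 min) 23 of 33 rose at an adjusted p under 0.05, against 14.0% of all genes, with a median difference of 0.67 against 0.08. Only CYC7 and COX5B also passed the minimum log2 difference of 1, against 5.2% of all genes, and 0 fell, against 7.11%. CYC7 and QCR10 passed it with the libraries labelled 195 and 210 min (4.86%), and CYC7 alone with a trend on gene length, described below, removed (1 gene, 4.95% of all). The count was 1 without the 105 min library (4.1%), 4 without that of 120 or 135 min (5.03% and 5.58%) and 6 without that of 150 min (6.01%). In 18 of the 33 genes all 4 late values lay above all 5 middle ones, against 12.4% of genes, and in 18 of 31 all 4 late values lay above all 4 early ones, against 9.92%. From early to late 17 of 33 rose by adjusted p alone, against 5.95% of all genes, and CYC7 and COX7 also passed the minimum of 1, against 2.46%, while 0 fell, against 3.51%. That count was 1 after centring (1.83%), 6 after quantile normalization (2.87%), 1 with the length trend removed (2.49%) and 0 with windows of 45 to 75 and 150 to 180 min (0.937%). It was 1 without the 15 min library (1.52%), 0 without that of 30 or 180 min (1.68% and 1.74%) and 4 without that of 60 or 150 min (3.71% and 3.37%). With the libraries labelled 195 and 210 min it was 2 (1.81%), but the genes were QCR10 (1.09, adjusted p = 0.025) and COX7 (1.08, adjusted p = 0.0167). CYC7 missed the threshold there (1.91, adjusted p = 0.0507). QCR10 had 1 value in these libraries, at the floor of that labelled 210 min. COX7 and CYC7 were not listed in them, so their differences stayed the same and their adjusted p moved with the fit over all genes. The count of 23 from middle to late was 19 with the libraries labelled 195 and 210 min (11.9%), 20 with the length trend removed (14.1%), 21 to 23 under the other settings and 18 to 24 when single libraries were left out, against 9.87% to 15.6% of all genes.

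**Figure D3:**
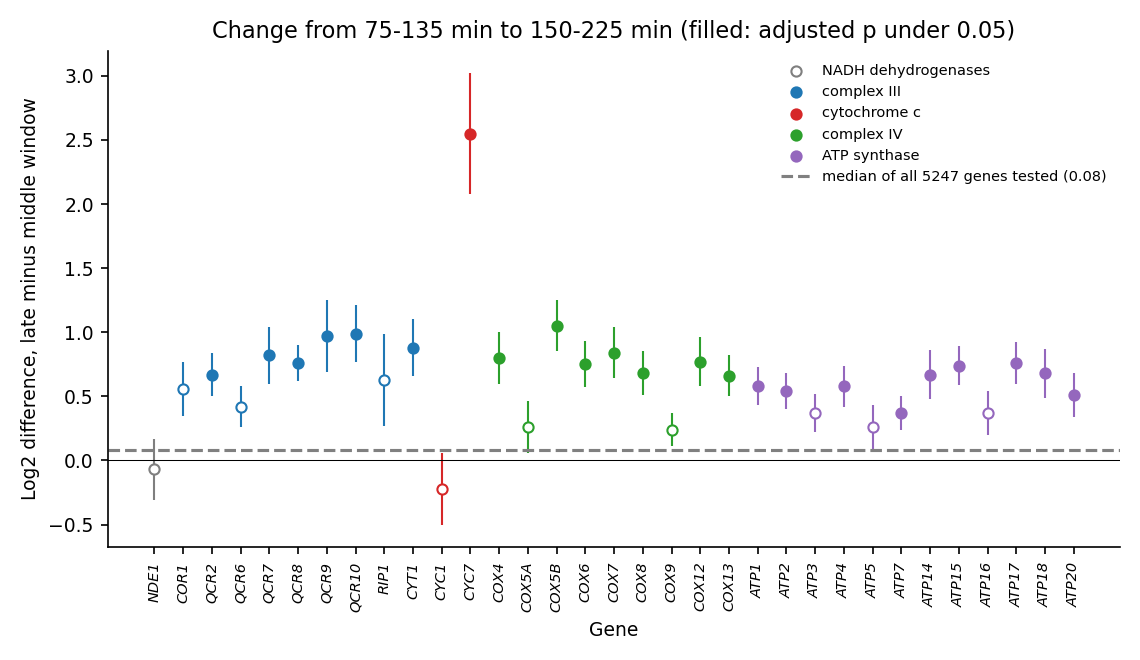
Log2 difference between the late (150, 165, 180 and 225 min) and middle (75 to 135 min) windows for each of the 33 genes tested (y axis), with its standard error from limma as bars and genes grouped by complex. Filled points have an adjusted p under 0.05; CYC7 stands highest at 2.55, and NDE1 and CYC1 lie below 0 with open points.

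Neither NADH dehydrogenase gene was called: NDE1 passed no test and NDI1 had too few values for the main fits. NDE1, the external enzyme, lay between log2 CPM 5.87 at 60 min and 7.35 at 15 min, with a median of 6.67, and all its windows overlapped. Its fitted change was -0.16 ± 0.35 (SE, adjusted p = 0.814, limma). NDI1, the internal enzyme, was listed at 45, 105, 135, 150, 165 and 225 min, at 11.74, 5.655, 8, 14.23, 13.98 and 20.02 CPM. These correspond to 10 to 31 reads. It was not listed at 0 min, where the floor was 2.909 CPM, nor at 90 min, where it was 4.385 CPM. Its 3 listed late values lay above the listed value of 45 min and both of the middle window, but it was not listed at 180 min (floor 13.05 CPM), and the floor at 30 min, 16.57 CPM, lay above 2 of them. With missing values set to each library's floor, its fitted change was 0.85 ± 0.56 (adjusted p = 0.405, limma).

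In complex III, all 9 genes had a positive slope, against 2964 of 5282 over all genes. By adjusted p alone, 6 of the 9 rose from the middle to the late window, against 14.0% of all genes. With the minimum of 1, 0 were called, against 5.2%. QCR10, a small subunit without a catalytic centre (YHR001W-A, chromosome VIII, 107826 to 108122, build R64, 2 exons), read 27.05 CPM at 0 min. It read 62.03, 64.63, 59.22 and 96.82 CPM from 15 to 60 min and 110.2, 111.9, 151.3 and 167.2 CPM in the 4 late libraries. All late values lay above all earlier ones. Its fitted change was 1.45 ± 0.35 (2.73-fold, adjusted p = 0.0269, limma), the highest slope of the complex. CYT1, cytochrome c1, read 84.94 CPM at 0 min and in starvation lay between 127.8 CPM at 105 min and 428.1 CPM at 225 min (1.25 ± 0.35, adjusted p = 0.0387), and COR1, a core protein, read 84.94 CPM at 0 min and in starvation lay between 88.22 CPM at 105 min and 291.2 CPM at 225 min (1.22 ± 0.30, adjusted p = 0.0269). The late values of both lay above their first-hour values, while those of COR1 overlapped the middle window. QCR2, the other core protein, had the lowest slope (0.60 ± 0.31, adjusted p = 0.255) but rose by 0.67 ± 0.17 from the middle to the late window (adjusted p = 0.00928). QCR7, QCR8 and QCR9 rose from the middle to the late window as well, by 0.82, 0.76 and 0.97, and QCR6 by 0.42 did not pass (adjusted p = 0.059). RIP1, the Rieske iron-sulphur protein, had the lowest level of the complex per coding length at 0 min, 6.28 CPM per kb from 14 reads, against 34.7 to 610 CPM per kb for the other 8 genes. It passed neither the slope nor a window test.

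Of the cytochrome c genes, CYC7 rose late and CYC1 passed no test. CYC7 (YEL039C, chromosome V, 79636 to 79977, build R64) encodes iso-2-cytochrome c, the minor form in aerobic cells, and CYC1 (YJR048W, chromosome X, 526335 to 526664) encodes iso-1-cytochrome c, the major form. CYC7 read 10.18 CPM at 0 min and 33.97, 49.72, 167.0 and 196.5 CPM from 15 to 60 min. It then read 99.37, 32.01, 29.97, 91.33 and 60.24 CPM from 75 to 135 min and 321.5, 411.6, 350.9 and 236.3 CPM in the late libraries. These late values lay above all its earlier ones, and its values at 45 and 60 min stood above all those from 75 to 135 min. CYC7 was not listed at 195 and 210 min, so it lay under their floors of 244 and 222.2 CPM, below 3 of its 4 late values at 195 min and below all 4 at 210 min. CYC7 rose by 2.55 ± 0.47 (log2, SE) from the middle to the late window (adjusted p = 0.00192, limma). Its difference of -0.64 ± 0.47 from the early to the middle window did not pass (adjusted p = 0.498), but with windows of 45 to 75, 90 to 120 and 150 to 180 min it fell by 1.74 (adjusted p = 0.00452), as the only member called lower, against 3.12% of all genes, and then rose by 3.02 (adjusted p = 2.38e-05). Its slope, 2.71 ± 0.96, the largest of all members, missed the threshold (adjusted p = 0.0991). CYC1 read 40.43 CPM at 0 min, 33.23 to 107.8 CPM in the first hour, 62.74 to 107.9 CPM in the middle and 63.92 to 88.56 CPM in the late window. Its windows overlapped throughout, and its slope was 0.07 ± 0.42 (adjusted p = 0.943).

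In complex IV, all 9 genes had positive slopes, and 7 of 9 rose from the middle to the late window by adjusted p alone, against 14.0% of all genes. With the minimum of 1, 1 was called, COX5B, against 5.2%. COX5B (YIL111W, chromosome IX, 155222 to 155765, 2 exons) encodes the form of subunit V known from low oxygen and COX5A (YNL052W, chromosome XIV, 531725 to 532186) the form used in air. COX5B read 66.61 CPM at 0 min and 246.7, 255.2, 411.9 and 437.1 CPM in the first hour. Its middle values were 374.6, 262.2, 234.7, 286.7 and 332.2 CPM, and its late ones 526.6, 679.3, 653.6 and 590.8 CPM. All late values lay above all earlier ones. The libraries labelled 195 and 210 min gave 561.2 and 399.9 CPM. COX5B rose by 1.05 ± 0.20 from the middle to the late window (adjusted p = 0.00192), but the difference was 0.93 with the libraries labelled 195 and 210 min and 0.99 with the length trend removed, both under the minimum of 1. COX5A, with the lowest slope of the complex (0.38 ± 0.28, adjusted p = 0.439), read 50.61 CPM at 0 min and 63.53 to 142.7 CPM afterwards. Its windows overlapped. COX7, subunit VII (YMR256C, chromosome XIII, 778945 to 779127), had the highest slope, 1.5 ± 0.30 (2.83-fold, adjusted p = 0.0152). It read 59.63 CPM at 0 min, 84.52 to 123.7 CPM in the first hour, 106.6 to 149.3 CPM in the middle and 153.4, 244.7, 311.8 and 189.2 CPM late. COX12, subunit VIb, rose with the line too (1.12 ± 0.31, adjusted p = 0.0383), and its late values, 215.6, 344.6, 364.0 and 217.0 CPM, lay above all earlier ones, with 288.8 CPM at 210 min. COX4, COX6, COX8 and COX13 rose from the middle to the late window by 0.66 to 0.80, while COX9 (0.24 ± 0.13, adjusted p = 0.203) did not pass.

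Within a library the balance between each pair of alternative subunits can be read without scaling. At 0 min CYC7 stood at 0.243 times CYC1 per kb of coding length. The log2 difference CYC7 minus CYC1 was -1.99 at 0 min, 0.03, -0.82, 0.63 and 1.11 in the first hour, and 1.86, 2.44, 2.46 and 1.75 in the late libraries. The late values lay above all early ones (2.13 ± 0.37 against 0.24 ± 0.83, SD, n = 4 each; two-sided exact permutation p = 0.0286, the smallest that 4 against 4 allows, and 0.0572 adjusted over 2 ratios). In the middle window it went to both sides, with 0.03, -1.75, -1.29, 0.54 and -0.73 from 75 to 135 min. COX5B minus COX5A was 0.40 at 0 min, 1.93 ± 0.32 in the first hour and 2.68 ± 0.54 late (exact permutation p = 0.0857, adjusted 0.0857). COX5B exceeded COX5A in all 14 deeper libraries, and the early and late values overlapped. Both permutation tests treat successive libraries as exchangeable, though nothing says that they came from separate cultures. A change between windows and a drift along the course cannot be told apart by them. The coding sequences of CYC1 and CYC7 are 76.4% identical with a longest shared run of 35 bases, and those of COX5A and COX5B 67.5% identical with a run of 12, so reads from the shared run of the cytochrome c genes may be split. How reads with several matches were counted is not given in the sources used here.

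**Figure D4:**
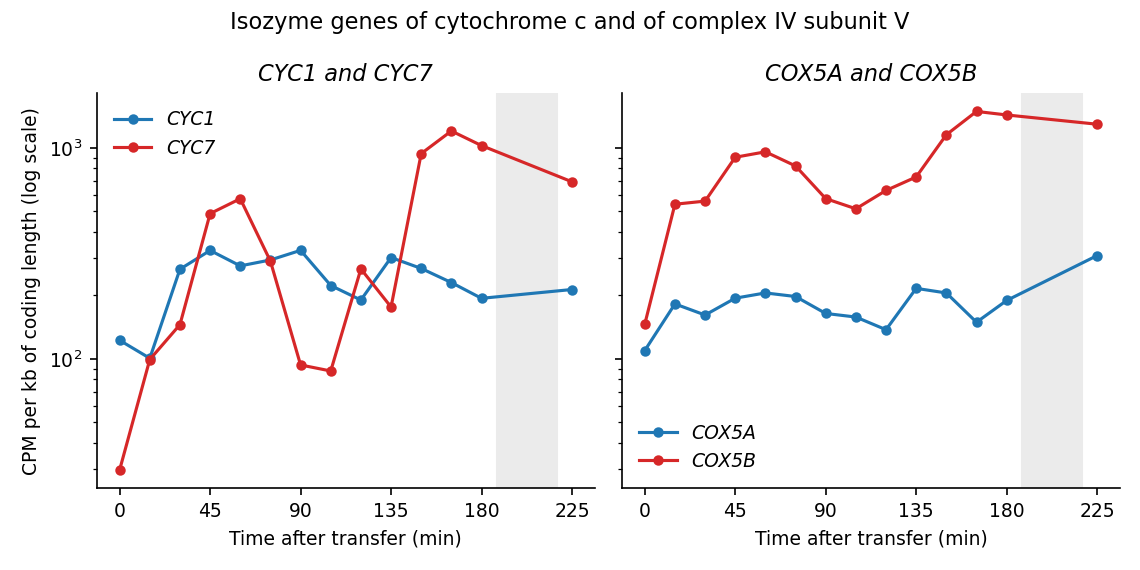
CPM per kb of coding length on a log axis against time after transfer (min) for CYC1 and CYC7 (left) and COX5A and COX5B (right), 1 library per point; the grey band marks the 2 shallow libraries left out. CYC7 starts below CYC1, crosses it at 45 and 60 min, lies below it at 90, 105 and 135 min, above it at 120 min and above it in the 4 late libraries, while COX5B lies above COX5A throughout.

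The stretches that lie 300 to 101 bases before the start codons of these 4 genes and of COX7, read from the R64 genome, are printed here. They run 5′ to 3′ on the gene's strand, and capitals mark the stress element core AGGGG and the CCAAT box, in either orientation.
CYC7, chrV:80078-80277, minus strand: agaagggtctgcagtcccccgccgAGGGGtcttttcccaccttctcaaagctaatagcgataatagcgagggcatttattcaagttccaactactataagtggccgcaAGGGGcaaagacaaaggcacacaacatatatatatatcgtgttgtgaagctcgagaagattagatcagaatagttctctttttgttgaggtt
CYC1, chrX:526035-526234, plus strand: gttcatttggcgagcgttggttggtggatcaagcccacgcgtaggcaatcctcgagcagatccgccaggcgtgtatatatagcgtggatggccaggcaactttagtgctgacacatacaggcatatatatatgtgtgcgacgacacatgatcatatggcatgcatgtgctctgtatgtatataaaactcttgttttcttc
COX5B, chrIX:154922-155121, plus strand: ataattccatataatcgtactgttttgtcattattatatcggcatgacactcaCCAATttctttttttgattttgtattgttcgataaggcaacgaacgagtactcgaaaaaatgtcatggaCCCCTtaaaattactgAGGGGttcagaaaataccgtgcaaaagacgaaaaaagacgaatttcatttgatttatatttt
COX5A, chrXIV:531425-531624, plus strand: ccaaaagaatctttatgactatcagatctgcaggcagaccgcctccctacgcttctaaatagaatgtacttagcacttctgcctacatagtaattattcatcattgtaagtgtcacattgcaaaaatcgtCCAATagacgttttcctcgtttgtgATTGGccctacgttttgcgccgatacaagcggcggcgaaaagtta
COX7, chrXIII:779228-779427, minus strand: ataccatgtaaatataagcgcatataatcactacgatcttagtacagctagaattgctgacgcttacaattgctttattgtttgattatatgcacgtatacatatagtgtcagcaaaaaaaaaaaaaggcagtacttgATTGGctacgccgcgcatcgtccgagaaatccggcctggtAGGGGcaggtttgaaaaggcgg
CYC7 holds 2 AGGGG cores and no CCAAT box, COX5B holds 2 cores and 1 box, COX5A 2 boxes and no core, COX7 1 of each, and CYC1 neither.

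Over all members and the full 300 bases before the start codon, CCAAT on either strand was found in 29 of 34 (85.3%), against 41.8% of 6001 genes of the build. ACCAATNA, a longer form that contains CCAAT, was found in 15 (44.1%) against 5.22%. AGGGG was found in 13 (38.2%) against 22.2%, and CACGTG, the core bound by the phosphate regulator Pho4, in 6 (17.6%) against 3.57%. The genes with CACGTG were QCR6, QCR8, QCR10, RIP1, ATP3 and ATP7. These matches describe the sequence only. Median late minus middle differences were 0.71 for the 12 tested genes with AGGGG and 0.63 for the 21 without, and 0.67 for the 14 with ACCAATNA and 0.58 for the 19 without, so the groups' medians lay close together.

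In the ATP synthase all 12 genes had positive slopes, and 9 of 12 rose from the middle to the late window by adjusted p alone, against 14.0% of all genes. With the minimum of 1, 0 were called, against 5.2%. ATP1, the alpha subunit of the catalytic head (YBL099W, chromosome II, 37053 to 38690), read 361.6 CPM at 0 min, 379.6, 439.2, 476.4 and 523.4 CPM in the first hour, 544.7, 488.5, 447.9, 565.4 and 597.2 CPM in the middle and 764.3, 718.2, 761.9 and 922.7 CPM late. Late values lay above all earlier ones. ATP1 had the highest slope of the enzyme and the lowest adjusted p of all members (1.17 ± 0.20, 2.25-fold, adjusted p = 0.00584), and it was the only member that passed a natural spline over time (adjusted p = 0.0302, against 2.73% of all genes). The libraries labelled 195 and 210 min gave 951.6 and 688.8 CPM. ATP2, the beta subunit that pairs with alpha, had the lowest slope (0.45 ± 0.25, adjusted p = 0.299) but rose by 0.54 ± 0.14 from the middle to the late window (adjusted p = 0.00815). ATP15, the epsilon subunit of the central stalk, rose by 1.01 ± 0.27 (adjusted p = 0.0351), and ATP18, a small membrane subunit, by 1.12 ± 0.29 (adjusted p = 0.0334). The late values of ATP15 lay above its first-hour values, while those of ATP18 overlapped them. With the libraries labelled 195 and 210 min both calls were lost: the slope of ATP15 was 0.60 (adjusted p = 0.26), with 414.8 and 311.1 CPM in those libraries against 476.5 CPM at 60 min, and that of ATP18 1.03 (adjusted p = 0.0691). COR1 (1.22, adjusted p = 0.0524) and COX5B (1.12, adjusted p = 0.0811) lost theirs there too. COR1 was not listed in either of these libraries, so its fitted change stayed the same and its adjusted p moved with the fit over all genes. ATP3 (gamma), ATP5 (the oligomycin-sensitivity protein of the stator) and ATP16 (delta) passed neither test, with late minus middle differences of 0.37, 0.26 and 0.37. Per kb of coding length the levels at 0 min ran from 122 CPM for ATP3 to 1840 CPM for ATP18, and in the late window, as means of 4 libraries, from 227 to 4870 CPM for the same genes.

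Gene length moved with the level in several libraries. The members are short, with a median of 445 bases against 1246 for 5092 genes. Genes up to 600 bases stood higher than genes over 1500 bases, each gene taken relative to its other libraries, at 165 and 180 min (median log2 differences of 0.28 and 0.27) and at 60 min (0.18). They stood lowest at 0 min (-0.31), and the difference lay between -0.12 (75 min) and 0.03 (120 min) in the other deeper libraries, with -0.11 at 225 min. Across the members, the mean of 165 and 180 min minus 225 min went down with gene length (Spearman's rho -0.59, n = 34 genes, which share the same libraries), as it did across all genes (-0.25). QCR7, COX12 and CYC7 were higher at 165 and 180 min than at 225 min, by 0.91, 0.71 and 0.69, and COX5A, RIP1 and COR1 lower, at -0.88, -0.84 and -0.82. The 10 members over 600 bases had a median slope of 0.72 and 3 calls, against 0.07 and 2.47% of all genes of that length. The 23 shorter members had 0.96 and 6 calls, against 0.23 and 6.3%. With the length trend removed from each library, 6 of the 9 genes called by the slope were still called (COR1, QCR10, CYT1, COX5B, COX7 and ATP1, against 3.05% of all genes). By adjusted p alone, 20 of 33 then rose from the middle to the late window, against 14.1% of all genes.

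**Figure D5:**
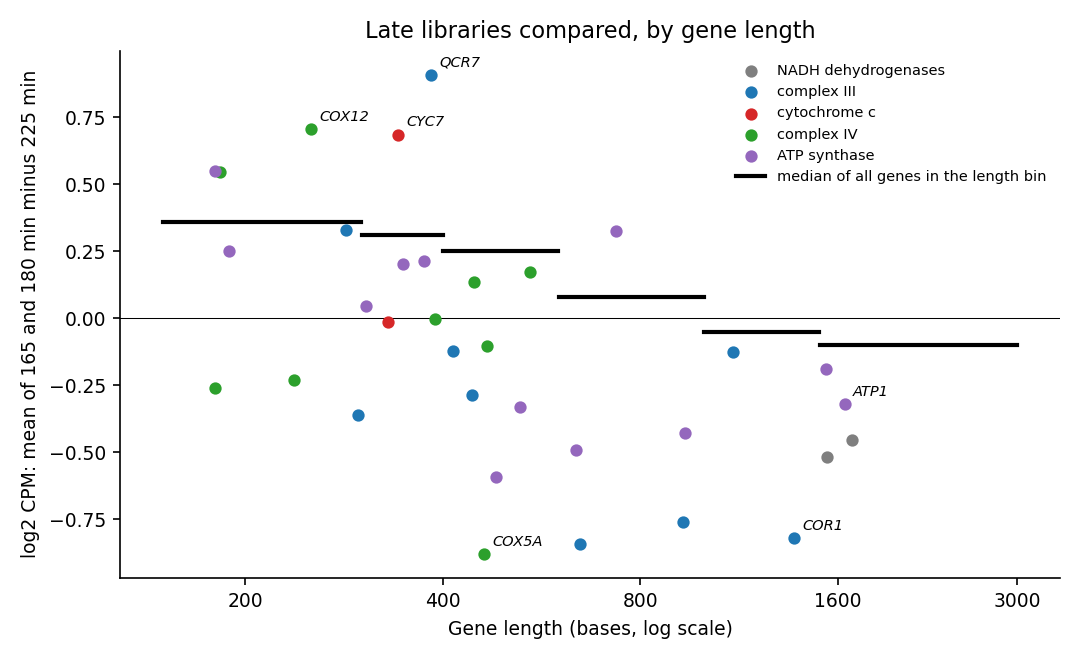
Mean log2 CPM at 165 and 180 min minus log2 CPM at 225 min (y axis) against gene length in bases (x axis, log scale), 1 point per member, with the median of all genes in each length bin as a black line. Short members such as QCR7, COX12 and CYC7 lie above 0, and COR1 and ATP1 below.

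Genes that build or serve the chain were read from the same fits. The complex II genes SDH1 to SDH4 had slopes of 1.01, 1.23, 1.06 and 0.93, none of which was called by limma (3 of 4 at an unadjusted p under 0.05). From the middle to the late window SDH1 rose by 1.02 ± 0.33 (adjusted p = 0.0329), SDH3 by 0.89 (0.00461) and SDH4 by 0.90 (0.00235), and SDH2 differed by 1.00 (adjusted p = 0.0587). SDH1 was listed in 12 libraries, at 7.918 to 11.84 CPM in the middle window and 10.99 to 27.4 CPM in the late one. Of 9 further chain and ATP synthase genes, 5 of the 8 tested rose by at least 1 in that step, against 5.2% of all genes. Among them were NDE2, the second external NADH dehydrogenase (2.70 ± 0.35, adjusted p = 0.000478), and INH1, STF1 and STF2 (1.33, 1.63 and 1.89, adjusted p = 0.00192, 0.00316 and 0.00189). The other was RCF1, a factor of respiratory supercomplexes (1.03, adjusted p = 0.000761), while RCF2, another such factor, fell by 0.58 (adjusted p = 0.0101). INH1, which encodes the ATP synthase inhibitor, was the only one of the 9 called by the slope (1.81 ± 0.46, adjusted p = 0.0285). NDE2 was listed in 9 libraries, and not at 0, 15, 30, 105 or 120 min. Its middle values were 10.3, 7.893 and 4.706 CPM, the last at the floor of the 135 min library. The late difference of NDE2 thus rests on values near the floor. PIC2, a mitochondrial copper and phosphate carrier, rose by 1.79 ± 0.51 over the course (adjusted p = 0.0457) and by 1.46 ± 0.27 in the late step (adjusted p = 0.00187). The main carriers PET9 (ADP/ATP) and MIR1 (phosphate) differed by 0.29 and 0.36 in that step and did not pass.

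Factors that assemble the complexes had no calls past the minimum of 1. Of all genes, the slope called 3.1% higher and 3.29% lower, and the late step 5.2% and 7.11%. The lists below are short, so 0 calls do not set them apart from all genes. Over all genes, 14.0% rose in the late step by adjusted p alone, and 1998 of 5247 had an unadjusted p under 0.05 in either direction. The unadjusted counts of the lists below also take either direction, and they lie on both sides of that share. Of 24 tested complex IV assembly genes limma called 0 by the slope or the late step with a minimum of 1, 5 rose in the late step by adjusted p alone, and 12 had an unadjusted p under 0.05. Their slopes ran from 0.92 for COX15 to -0.42 for COX11. Of 8 complex III and cytochrome c assembly genes 0 were called, 2 rose by adjusted p alone (also 2 by unadjusted p), and the slopes ran from 1.04 for CBP4 to -0.13 for CYC3. Of 6 ATP synthase assembly genes 0 were called and 1 had an unadjusted p under 0.05 in the late step, with slopes from 0.23 for INA22 to -0.17 for ATP12. Median late minus middle differences of these lists were 0.42, 0.33 and 0.18, against 0.67 for the members. Against 0 min their late medians were 1.31, 0.74 and 0.77, with 1.28 for the members. In the first hour these medians were 0.95, 0.52 and 0.7, with 0.76 for the members. The difference between lists was not tested. Of 12 tested translation factors for mitochondrial messages 0 were called, 3 rose by adjusted p alone and 4 had an unadjusted p under 0.05 in the late step, with slopes from 1.00 for PET494 to -0.27 for PET309. Coenzyme Q synthesis (10 genes) had 0 calls, 3 by adjusted p alone and 5 by unadjusted p, with slopes from 0.82 for COQ4 to -0.31 for COQ10, and the TCA cycle (11 genes) 0 calls, 4 by adjusted p alone and 5 by unadjusted p, with slopes from 1.02 for MDH1 to 0.15 for ACO1. Late medians against 0 min were 2.26 for complex II, 1.78 for the further chain genes and 1.56 for the TCA cycle. They were 1.02 for coenzyme Q synthesis, 0.9 for ADP/ATP and phosphate carriers and 0.68 for the translation factors, with 1.28 for the members. In complex II, SDH1 and SDH2 lay near the floor at 0 min, at 3.491 CPM each against 2.909 CPM. Their late ratios were 2.46 and 2.53, against 1.78 for SDH3 and 2.05 for SDH4. HAP4, the activating subunit of the CCAAT-binding complex, read 8.726 CPM at 0 min, 12.27 to 18.23 CPM in the first hour, 7.893 to 13.98 CPM in the middle, and 30.57, 17.98 and 30.35 CPM at 150, 165 and 225 min. It rose by 1.23 ± 0.28 in the late step (adjusted p = 0.00538), with no value at 180 min, where the floor was 13.05 CPM. That floor lies below the top of its middle range, so the difference leaves out a low late value. Of 7 haem and oxygen regulators HAP4 alone was called in that step, against 5.2% of all genes, with a list median of 0.27. HAP5 differed by 0.95 (adjusted p = 0.011, limma) and HAP1 by 0.49. ROX1, HAP3, MOT3 and HAP2 differed by 0.27, 0.23, 0.06 and -0.32.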

How the data were processed

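RNA was sequenced on an Illumina HiSeq instrument, per the labels' protocols, and the submitters' processing notes name Bowtie, without a version, and build R64; the counting program and its strand setting are not given in the sources used here. The authors deposited log2 values, which raised back sum to 1000000 in each library, so they are log2 CPM; the 0 min value was subtracted here to give ratios, with no pseudocount. Genes under a floor have no value. Low values are whole multiples of a step: with the lowest value taken as 10 reads, an assumption, 93.2% to 97.7% of low values fell within 0.01 of a whole read. True depths may differ by a constant factor. A count test was not run on these log2 values.

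Of 6701 entries, 51 without a name and 1 name on 2 entries were left out. The slope was fitted with limma 3.58.1 in R 4.3.3 (mean-variance trend, two-sided, genes with at least 8 values). Windows needed at least 2 values in each window. Adjusted p-values are over all genes tested. Both fits were run on simulated data with independent noise. Those runs do not cover the correlation of successive libraries, which was 0.38 about the fitted line. Isozyme ratios used exact permutation tests. NDE1 minus NDI1, the third ratio planned, could not be formed, since NDI1 has too few values. 0 of the 34 members overlap another R64 gene. Named genes are the members called, the isozyme pairs, the highest and lowest slope of each complex and, of each further list, the called genes or the largest and smallest slope, with HAP4 and complex II always. The genes added beyond this rule, such as PET9, MIR1 and the complex III subunits, were named after their values were seen. Members and lists were chosen with earlier results of these data known. Alternatives were other library sets, normalizations, windows, variance models and thresholds, with removal of the length trend, and of the autocorrelation for windows, added after seeing the data.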

Additional observations from a re-analysis of the deposited data

How the results depend on the processing

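The 9 members called by the slope became 5 with all 15 starvation libraries, 5 after median centring, 2 with the autocorrelation removed and 1 with a natural spline, but 13 of 31 after quantile normalization and 12 with no minimum change, and leaving out single libraries gave 1 to 12. From early to middle 0 were called lower, 1 with the shorter windows. From middle to late the 2 members past the minimum of 1 became 1 with the length trend removed and 23 with no minimum, and 1 to 6 when single libraries were left out. From early to late the 2 became 1 after centring, 6 after quantile normalization, 0 with the shorter windows, 1 with the length trend removed and 17 with no minimum, and 0 to 4 when single libraries were left out. Against 0 min the counts of 6 and 23 became 3 and 14 after centring; leaving out single libraries gave 5 to 10 and 22 to 24. The ratio CYC7 minus CYC1 rose by 1.89, and by 1.66 with windows of 45 to 75 and 150 to 180 min, where 0.1 is the smallest p that 3 against 3 allows; it was 1.53 to 2.18 without single libraries, where p was 0.0571, the smallest that 3 against 4 allows, and COX5B minus COX5A 0.54 to 0.96. The slope of CYC1 changed sign, to -0.04 after centring, -0.02 after quantile normalization and -0.15 with the length trend removed; without single libraries it ran from -0.60 to 0.23, that of NDE1 from -0.40 to 0.20 and that of COX5A from -0.05 to 0.51. The cause of these changes was not tested. No paired analysis was possible because each time point has 1 library. Depth limits NDI1 and RIP1 most, and the libraries labelled 195 and 210 min hold abundant genes only.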
